A study of Mus musculus with 2 samples.

Results

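The genes described here are 10 members of the Yap and Tead pathway, read from the arrays by their gene names: the coactivators Yap1 and Wwtr1, the DNA-binding factors Tead1, Tead2 and Tead4, the target genes Ctgf, Cyr61 and Ankrd1, and the feedback genes Lats2 and Amotl2. They are represented by 15 probes, each printed once, out of 41174 probes for 28786 genes or transcripts, and no probe with another name led to one of them by its accession. The samples were 2 subcutaneous tumours grown from RMS3, which the labels call a PRMS cell line without spelling out the abbreviation. For each tumour 1000000 RMS3 cells in 200 µl of buffer were placed under the skin of a male mouse of strain C57BL/6J, and RNA was taken from the tumour at 2 weeks. Both tumours carry the same labels apart from their number. The study thus holds 1 group of 2 tumours from 1 cell line, with no uninjected tissue, cultured cells or other treatment as a control, and the treatment text calls the harvested tumours metastatic while the other labels place them at the injection site.

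Yap1 and Wwtr1 (Taz) are transcriptional coactivators that cannot bind DNA themselves. The Hippo kinase cascade, which ends in the kinases Lats1 and Lats2, phosphorylates them and keeps them out of the nucleus. When the cascade is inactive, they enter the nucleus, bind Tead factors and switch on genes such as Ctgf, Cyr61 and Ankrd1, and also Lats2 and Amotl2, which feed back on the pathway. In skeletal muscle, Yap activity goes with the proliferation of myoblasts and satellite cells, and Tead factors bind MCAT elements, with the core CATTCC, in the promoters of muscle genes. The activity of Yap and Taz depends largely on phosphorylation and location, neither of which a transcript level measures.

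The Tead core motif was searched for in the promoters, because it is the DNA element through which these factors reach target genes. RefSeq promoter windows of build GRCm38.p6, from 250 bases before to 50 bases after the transcription start, were matched for 7 of the 10 genes, and Tead1, Tead4 and Ctgf had no entry. CATTCC, read on both strands, was found in 6 of the 7 genes, against 16.6% of the 27025 genes with such a window. These genes include textbook targets of Tead factors, so their share is not an independent measure, and a match shows the letters only. The AP-1 motif TGANTCA and the CArG box bound by Srf, also read on both strands, were found in none of the 7 genes, against 8.97% and 1.81% of all genes with a window. The 250 bases before the start are shown for the targets Cyr61 (chr3:145649986-145650235, minus strand) and Ankrd1 (chr19:36119845-36120094, minus strand), 5′ to 3′ along the gene with CATTCC or its reverse complement GGAATG in capitals.
Cyr61: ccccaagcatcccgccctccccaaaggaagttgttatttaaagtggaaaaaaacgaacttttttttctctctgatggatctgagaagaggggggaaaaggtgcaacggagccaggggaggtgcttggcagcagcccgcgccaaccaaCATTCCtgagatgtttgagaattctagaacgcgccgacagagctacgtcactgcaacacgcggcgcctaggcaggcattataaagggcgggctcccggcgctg
Ankrd1: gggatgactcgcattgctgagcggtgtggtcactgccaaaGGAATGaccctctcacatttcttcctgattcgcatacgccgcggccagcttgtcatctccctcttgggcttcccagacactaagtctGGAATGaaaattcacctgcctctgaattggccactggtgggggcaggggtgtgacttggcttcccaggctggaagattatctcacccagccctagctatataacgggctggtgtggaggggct

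The match lay at position -103 from the start of Cyr61, and the 2 matches of Ankrd1 lay at -210 and -123. The feedback genes and both coactivators each held a match as well. These are shown as windows of 30 bases for Amotl2 (chr9:102717727-102717756, plus strand, position -65), Lats2 (chr14:57746102-57746131, minus strand, position 5), Yap1 (chr9:8004720-8004749, minus strand, position -141) and Wwtr1 (chr3:57576029-57576058, minus strand, positions -170 and -136 from its 2 annotated starts).
Amotl2: ctgaaactctcaCATTCCtggcatagcagc
Lats2: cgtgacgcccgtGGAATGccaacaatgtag
Yap1: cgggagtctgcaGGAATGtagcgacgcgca
Wwtr1: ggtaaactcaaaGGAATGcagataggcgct
The only gene with a window and no match was Tead2.

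Each tumour was measured on its own single-colour (Cy3) array, and 66.1% and 62.3% of the non-control spots were well above background in tumour 2 and tumour 1. The array of tumour 1 carried 1055 outlier flags on non-control spots, against 43 on that of tumour 2, and its flagged spots lay in bands, so spots within 2 rows and columns of a flag of that array, or of a spot with high local background in tumour 2, were left out. All 15 spots of the 10 genes lay outside this zone, and none was saturated. Their distance from the nearest outlier flag of the array of tumour 1 was 3 to 41 rows or columns. A level is the log2 signal of a probe minus the 75th percentile of its array. Levels can be compared between tumours but not between probes. Differences are tumour 2 minus tumour 1 on that log2 scale. With 2 tumours of 1 group no test is possible and no p-value is given. Precision is limited by having 2 arrays. The 169 detected probes that kept at least 3 repeat spots away from flags had a standard deviation of 0.22 for the difference of a spot, which covers spot error within the arrays only. Repeat spots spread more on the array of tumour 1 (standard deviation 0.23) than on that of tumour 2 (0.09). In RNA from whole tumours, fewer cells of a type and less RNA per cell cannot be told apart, and host cells contribute as well.

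**Figure D1:**
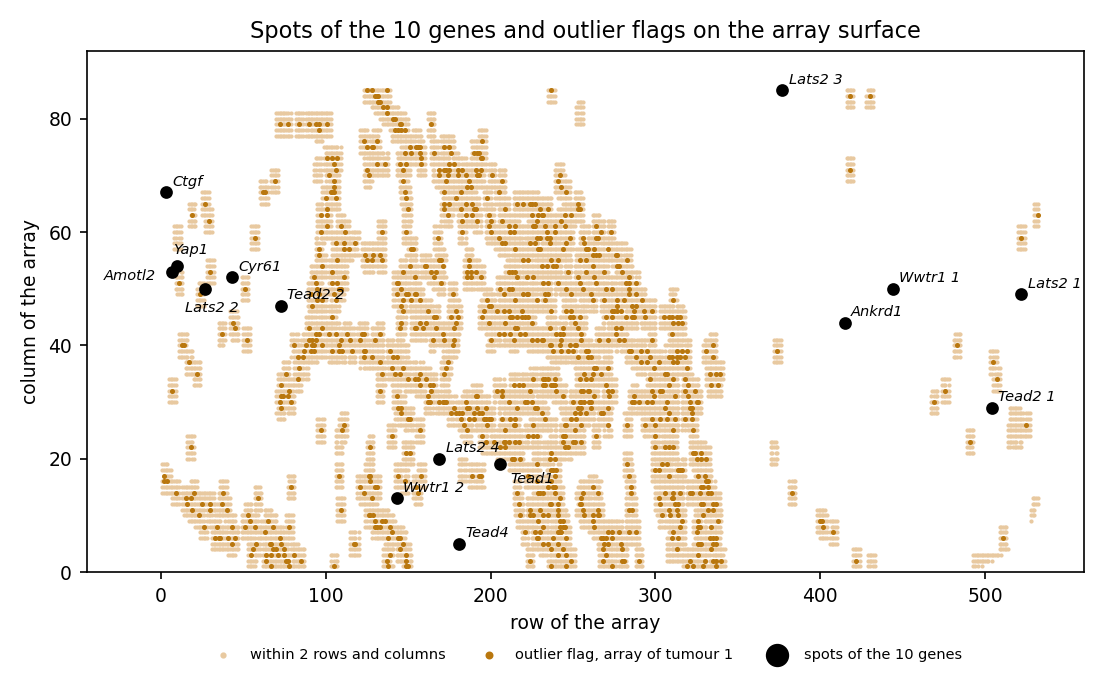
Position of the 15 spots of the 10 genes (black) on the array, by row and column, with the outlier flags of the array of tumour 1 (dark) and the spots within 2 rows and columns of a flag or of a high-background spot of tumour 2 (light). Numbers after a name count the probes of a gene, and every black spot lies outside the shaded zone.

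Of the 10 genes, 9 were well above background on both arrays, against 70.0% of the 15039 genes with a symbol measured away from flags. The exception was Tead1. None of these 9 genes differed by 2-fold or more between the tumours, where 2.69% of 10524 genes lay 2-fold or more above tumour 1 in tumour 2 and 1.88% lay 2-fold or more below it, so a count of 0 among 9 lies near the background. The 9 differences ran from -0.23 to 0.73 with a median of 0.12, against a median of 0.02 and quartiles of -0.22 and 0.28 over all genes. The difference was above 0 for 6 genes and below 0 for 3, and 53.1% of all genes were higher in tumour 2. The median absolute difference was 0.23 over the 9 genes and 0.25 over all genes.

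**Figure D2:**
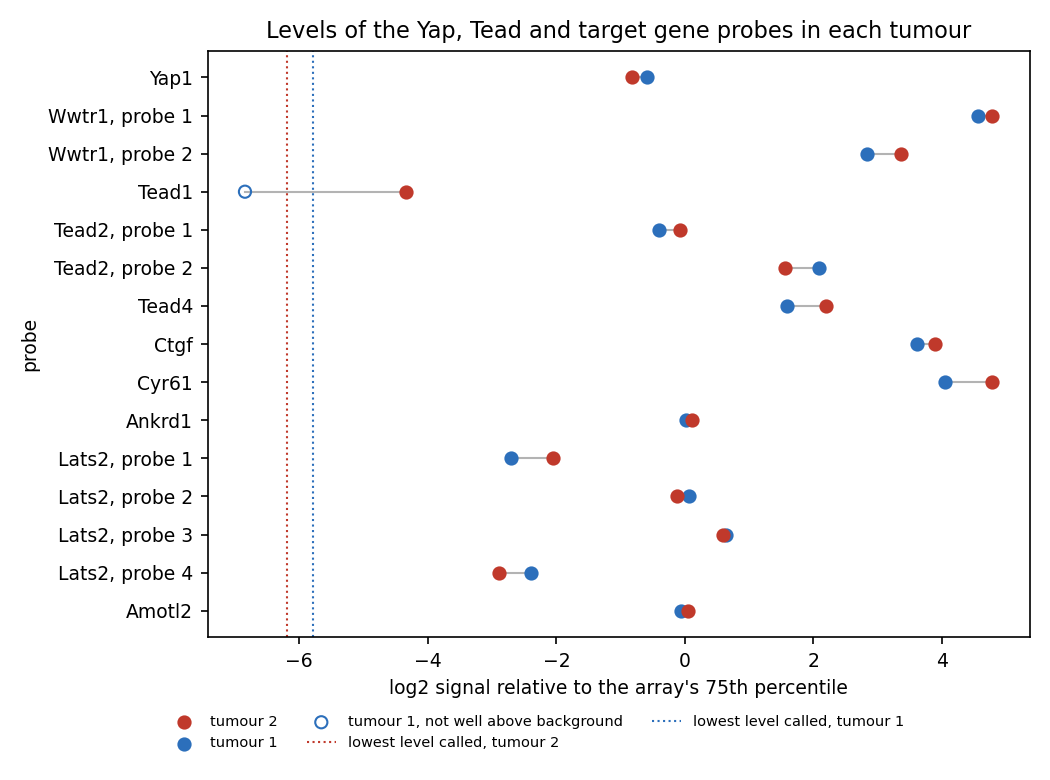
Level of each of the 15 probes (log2 signal minus the 75th percentile of its array) in tumour 2 (red) and tumour 1 (blue), with the lowest level called well above background on each array as a dotted line. Only Tead1 has an open symbol, at -6.84 in tumour 1, where it was not well above background. Levels of different probes are not comparable.

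The coactivators were both detected. The probe of Yap1 had a processed signal of 511 in tumour 2 and 663 in tumour 1, and its mean signal was 9.76 and 13.7 times the local background. Its level was -0.82 in tumour 2 and -0.59 in tumour 1 (mean -0.70 ± 0.17, SD, n = 2), differing by -0.23. That difference is 1.12 times the standard deviation of repeat spots at a like level (0.21), and 52.2% of all genes lay at least as far apart. The detected spots within 5 rows and columns of the Yap1 spot had a median difference of -0.14, on the same side of 0.

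Wwtr1, the paralogue of Yap1, was read by 2 probes that both lay far above background. The first gave 24660.4 in tumour 2 and 23600 in tumour 1, which was 489 and 462 times the local background, and the second gave 9268 and 7120. Both probes were higher in tumour 2, by 0.21 and 0.52, and the surrounding spots of the second had a median difference of 0.26. For the gene, the level was 4.07 in tumour 2 and 3.70 in tumour 1 (3.89 ± 0.26, SD, n = 2), differing by 0.36 that 34.7% of all genes reached or exceeded. The coactivators therefore lay on opposite sides of 0. Under the planned normexp background correction the signs were the reverse (0.42 for Yap1 and -0.53 for Wwtr1). The median of all genes moved to 0.46 in that setting, and both coactivators lay below it.

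Among the Tead factors, the DNA-binding partners of the coactivators, Tead4 and Tead2 were detected in both tumours. Tead4, which is induced during myoblast differentiation, gave a processed signal of 4117 in tumour 2 and 3000 in tumour 1. Its level was 2.19 in tumour 2 and 1.59 in tumour 1 (1.89 ± 0.42, SD, n = 2), so it was 0.60 or 1.51-fold higher in tumour 2. This was 2.07 times the standard deviation of repeat spots at a like level, while the surrounding spots had a median difference of -0.10. It rests on 1 probe, whose accession the file describes as ETF-related factor-2a, and 15.9% of all genes lay at least as far apart.

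The 2 probes of Tead2, a factor prominent in embryonic tissue, disagreed. One gave 854 in tumour 2 and 756 in tumour 1, differing by 0.32, and the other gave 2662 in tumour 2 and 4250 in tumour 1, differing by -0.53. Each exceeded the standard deviation of repeat spots at its level (0.14 and 0.29), so the gene has no direction that both probes share. The median over the probes was 0.74 in tumour 2 and 0.85 in tumour 1, differing by -0.11.

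Tead1, a Tead factor of heart and skeletal muscle, was the only one of the 10 genes above background in a single tumour. Its probe gave 44.6 in tumour 2 and 8.66 in tumour 1, where it was not well above background, and mean signals were 2.37 and 1.49 times the local background. Its level of -4.34 in tumour 2 was 2.72-fold above the lowest level called on the array of tumour 1 (-5.78). Calls are made spot by spot, so an uncalled spot can lie above that level, and 2.72-fold is not a strict minimum. The measured level of Tead1 in tumour 1 was -6.84, and the size of the difference is unknown. The spot lay 3 rows or columns from a flag of the array of tumour 1, and the detected spots around it, away from flags, had a median difference of -0.10. It is 1 weak spot on each array, with no second probe for the gene.

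The target genes Ctgf and Cyr61 gave bright signals in both tumours. Both encode secreted matricellular proteins of the CCN family (Ccn2 and Ccn1) that bind integrins and act on adhesion and matrix production. Ctgf had a processed signal of 13448 in tumour 2 and 12100 in tumour 1, 224 and 199 times the local background in mean signal. Its level was 3.90 in tumour 2 and 3.60 in tumour 1 (3.75 ± 0.21, SD, n = 2), differing by 0.29 or 1.63 times the standard deviation of repeat spots.

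Cyr61 had a processed signal of 24859.7 in tumour 2 and 16500 in tumour 1, and its mean signal was 433 and 290 times the local background. Its level was 4.78 in tumour 2 and 4.05 in tumour 1 (4.42 ± 0.52, SD, n = 2), differing by 0.73 or 1.66-fold. It was the largest difference among the 9 genes detected in both tumours, and 10.4% of all genes lay at least as far apart. The difference was 11.2 times the standard deviation of repeat spots at a like level (0.07). That standard deviation pools the 40 repeat probes nearest in level, and it was 0.18 for Ctgf at a level of 3.75. Over all 169 repeat probes it was 0.22, so the multiple of 11.2 depends on the probes pooled. The surrounding spots had a median difference of -0.01. Cyr61 was higher in tumour 2 in 10 of the 11 settings that gave it a value, from 0.53 to 0.73. It lay at -0.19 under the planned normexp correction. The 10 settings include the main values and those that change only the detection rule or the probe chosen. The latter cannot move a gene with 1 probe called on both arrays, so the count overstates how far the direction was checked.

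Ankrd1, a muscle ankyrin repeat protein found in the nucleus and the sarcomere, was nearly level. Its probe gave 979 in tumour 2 and 1010 in tumour 1, and its level was 0.12 and 0.02 (0.07 ± 0.07, SD, n = 2). The difference of 0.10 was 0.40 times the standard deviation of repeat spots, and 78.5% of all genes lay at least as far apart. Ankrd1 thus did not share the difference of Cyr61, although each rests on 1 probe and the gap between them was not tested.

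**Figure D3:**
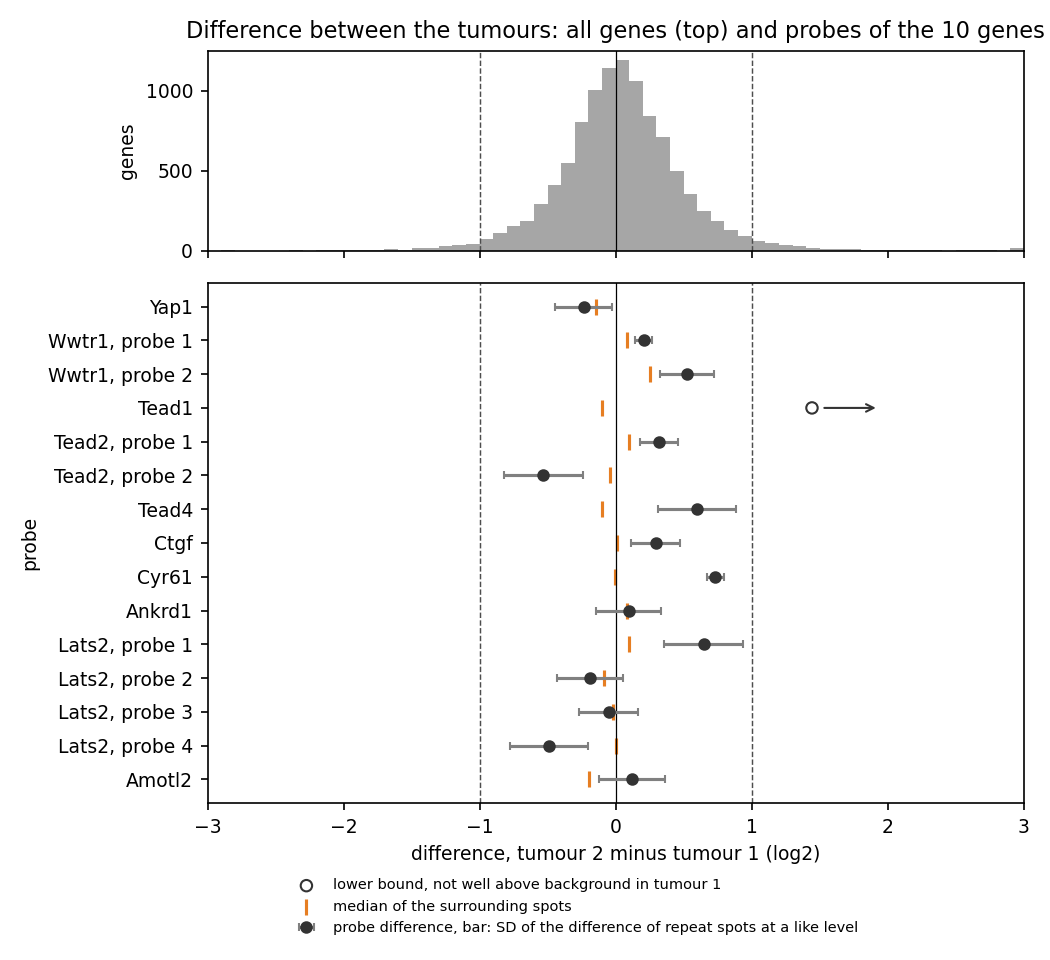
Difference between the tumours (log2, tumour 2 minus tumour 1) for all 10524 genes detected on both arrays (top, with values beyond the axis in the end bins) and for the 15 probes of the 10 genes (bottom). Bars are the standard deviation of the difference of repeat spots at a like level, orange ticks the median of the surrounding detected spots, and dashed lines mark 2-fold. The probes detected in both tumours lie inside the 2-fold lines, with Cyr61 at 0.73. The open symbol with an arrow is Tead1 at 1.44, its level in tumour 2 against the lowest level called in tumour 1, which is not a strict bound.

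The feedback genes were detected in both tumours. Lats2, the kinase that phosphorylates Yap and Taz, was read by 4 probes, of which 3 carry the accession of its RefSeq transcript. These gave 217, 827 and 1355 in tumour 2 and 153, 1040 and 1550 in tumour 1, with differences of 0.65, -0.19 and -0.05. The fourth, for a transcript the file calls alternatively spliced, gave 122 in tumour 2 and 189 in tumour 1, differing by -0.49. The 2 brighter probes lay within 1 standard deviation of repeat spots of 0 (0.24 and 0.22), whereas the 2 dimmer probes went opposite ways beyond it. Over the 4 probes the median difference was -0.12.

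Amotl2, an angiomotin relative that binds Yap at cell junctions, gave 938 in tumour 2 and 952 in tumour 1. Its level was 0.06 in tumour 2 and -0.06 in tumour 1 (0.00 ± 0.08, SD, n = 2), differing by 0.12 that was 0.50 times the standard deviation of repeat spots. In all, 4 of the 9 genes (Tead2, Ankrd1, Lats2 and Amotl2) differed by less than 1 such standard deviation, although the probes of Tead2 and Lats2 disagreed, and 3 (Wwtr1, Tead4 and Cyr61) by more than 2. For Wwtr1 this rests on a standard deviation of 0.06 at its gene level, against 0.20 at the level of its second probe.

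Genes around the 10 were read from 5 lists. Over all genes with a symbol measured away from flags, 70.0% were detected on both arrays, and 53.1% of those were higher in tumour 2. All 22 Hippo kinases and upstream regulators measured away from flags were detected on both arrays, with a median difference of 0.08, which turned to -0.06 in the unscaled table. The kinase Stk3 (Mst2) lay at -3.02 in tumour 2 and -2.09 in tumour 1, with 2 probes at -0.11 and -1.76. Its paralogue Stk4 (Mst1) differed by -0.17 and the scaffold Sav1 by 0.07. The kinase Lats1 had only a spot near a flag, where it was well above background in both tumours (processed signal 102 in tumour 2 and 109 in tumour 1). In this list 1 gene was at least 2-fold higher in tumour 2, Ajuba, a LIM protein that inhibits Lats kinases, at -2.77 in tumour 2 and -4.87 in tumour 1 (2.10, or 4.27-fold, and 1.04 in the normexp fit without high-background spots). Its tumour 1 value stood near the floor of detection on that array (-5.78). The Kibra relative Wwc2 was the 1 gene at least 2-fold higher in tumour 1 (-4.54 in tumour 2 and -3.52 in tumour 1). It missed 2-fold with quantile scaling (-0.96), loess scaling (-0.98) and the normexp refit (-0.47), and turned above 0 under the planned normexp correction.

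Of the other Tead partners, the cofactor Vgll4, which competes with Yap for Tead factors, was detected in both tumours (-1.59 in tumour 2 and -1.87 in tumour 1). Vgll1 was not well above background in either. Tead3 had only a spot near a flag, and there it was well above background in tumour 2 alone, with processed signals of 15.5 in tumour 2 and 15.9 in tumour 1. The spot of Vgll2, likewise near a flag, was not well above background in either tumour, and Vgll3 was not found on the array under that name.

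Of 16 further genes from Yap target signatures, 15 were measured away from flags and all 15 were detected on both arrays. Their median difference was -0.05, with 6 higher in tumour 2 and 9 in tumour 1, and none reached 2-fold. The receptor tyrosine kinase Axl differed by -0.17, the transmembrane protein Crim1 by 0.09, the exchange factor Dock5 by -0.43 and the Arf GTPase activator Asap1 by -0.01. The widest gap was that of the growth factor Tgfb2 (-0.28 in tumour 2 and 0.69 in tumour 1, differing by -0.96).

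Relatives of the targets went both ways. All 4 measured Ccn and muscle ankyrin repeat genes were detected. Ccn5, a CCN protein that lacks the C-terminal domain, lay at -4.15 in tumour 2 and -2.98 in tumour 1, differing by -1.17, but by -0.70 in the normexp refit and above 0 under the planned normexp correction. Ankrd2, the relative of Ankrd1 found in slow muscle, lay at -1.03 in tumour 2 and -2.18 in tumour 1, differing by 1.15, but by 0.95 with all unflagged spots and 0.91 in the normexp refit. Ankrd23, also a muscle ankyrin repeat gene, differed by 0.28 and Ccn3 by -0.45. Ccn4 had only a spot near a flag, with processed signals of 655 in tumour 2 and 2190 in tumour 1.

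Srf and its partners share target genes with Yap and Tead, including Ctgf, Cyr61 and Ankrd1. All 10 genes of that list were detected on both arrays, with a median difference of 0.20. Of these, 7 were higher in tumour 2 (5 in the unscaled table), against 53.1% of all genes (37.2% unscaled). Srf itself differed by 0.30, its coactivators Mrtfa by 0.41 and Mrtfb by -0.03, and Myocd by 0.94 (-4.37 in tumour 2 and -5.31 in tumour 1). The Myocd difference rests on 1 of its 2 probes, and its tumour 1 value stood near the floor of detection on that array (-5.78). The actin-binding gene Tagln was the 1 gene at least 2-fold higher in tumour 2 (0.86 in tumour 2 and -0.16 in tumour 1, differing by 1.03). This difference rests on 1 of its 2 probes. The call was lost in 5 of the 8 other settings, where the difference lay between 0.51 and 1.00. No gene of the list was 2-fold higher in tumour 1.

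**Figure D4:**
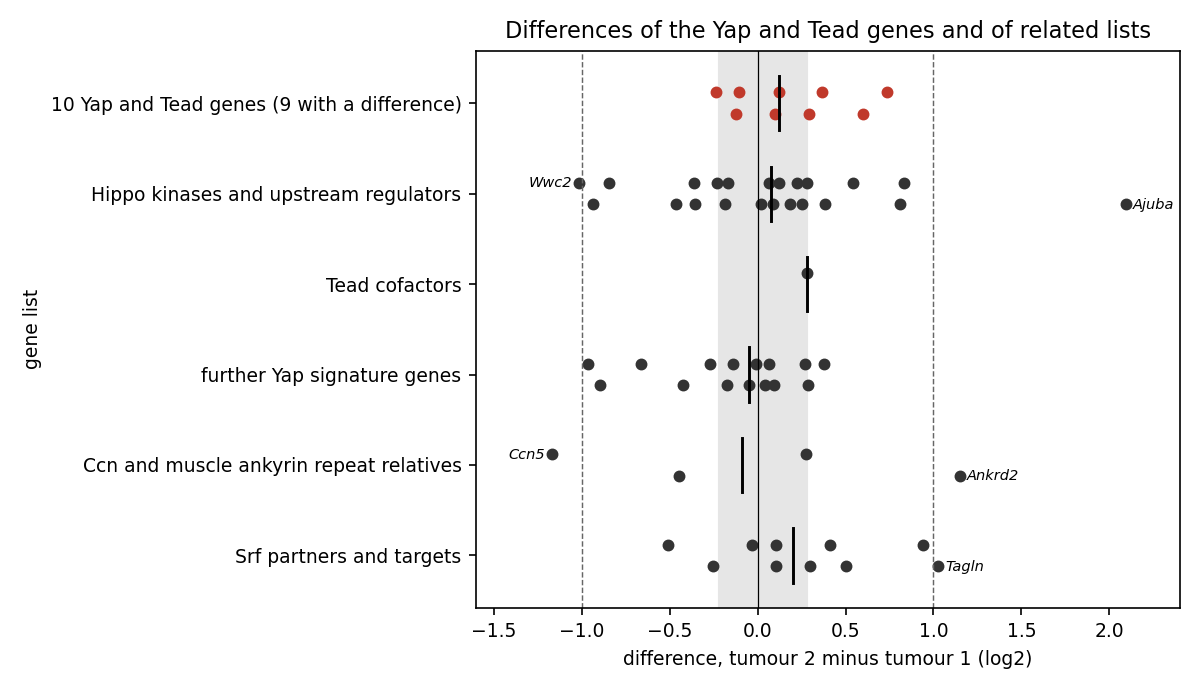
Difference of each gene (log2, tumour 2 minus tumour 1) for the 9 Yap and Tead genes with a value (red) and for the 5 related lists (black), with the median of a list as a bar, the quartiles of all genes shaded and dashed lines at 2-fold. Genes at least 2-fold apart are named: Ajuba, Ankrd2 and Tagln towards tumour 2, Wwc2 and Ccn5 towards tumour 1. Of these, only Ajuba stayed 2-fold apart in the same direction in each setting that gave it a value.

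Markers of the cell types that such a tumour could hold also differed between the tumours, and their part in the differences above was not tested. All 5 fibroblast markers were detected and lower in tumour 2, with levels of 1.03 to 6.29 in tumour 2 and 1.19 to 6.35 in tumour 1 (median difference -0.34). All 5 endothelial markers were also lower in tumour 2 (-5.66 to 0.53 in tumour 2 and -5.10 to 1.50 in tumour 1, median -0.45). The planned normexp correction left 4 of the 5 fibroblast markers and 1 of the 5 endothelial markers lower in tumour 2, and 1 endothelial marker also turned with loess scaling, with all unflagged spots and in the lower rows. Of 5 muscle markers 4 were measured away from flags and all 4 were detected, in RNA that does not separate RMS3 from host cells (-5.59 to -1.05 in tumour 2 and -5.24 to -2.13 in tumour 1, median difference 0.60, and -0.07 over 5 markers with all unflagged spots). These markers disagreed, with Des at 1.24, Myh3 at 1.07, Myog at 0.13 and Myod1 at -0.35. Myod1 (-5.59 in tumour 2 and -5.24 in tumour 1) stood near the floor of detection on both arrays (-6.19 and -5.78). Chrna1 had spots only near flags, well above background in both tumours. Its 2 probes gave 6596 and 77687 in tumour 2, below the 9020 and 102000 of tumour 1. Of the 5 keratinocyte markers 2 were detected on both arrays, Krt5 and Krt14, higher in tumour 2 by 3.55 and 3.64 (2.08 and 2.78 in the normexp refit). In tumour 1 they lay at -5.21 and -4.26, Krt5 near the floor of detection on that array (-5.78). Trp63 and Dsg3 were not well above background in either tumour, and Krt10 was so in tumour 2 alone. The 3 mural markers measured had a median difference of 0.79 (-2.26 to -0.39 in tumour 2 and -2.09 to -1.35 in tumour 1), with Abcc9 the other way at -0.50, and a median of 0.17 over 4 markers with all unflagged spots. Of 4 macrophage markers 3 were detected (-1.15 to -0.01 in tumour 2 and -0.51 to 0.05 in tumour 1, Csf1r in neither), and of 4 T cell markers 1, Cd3e (-4.77 in tumour 2 and -5.01 in tumour 1), with Cd3g, Cd8a and Cd4 in neither.

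The directions of the 9 genes were set side by side under 12 settings. Quantile and loess scaling, the median of detected probes as the scale and a normexp fit without high-background spots kept the sign of all 9. Using all unflagged spots moved the median of all genes to -0.14 and the unscaled value table moved it to -0.12. In both, Ankrd1 and Amotl2 turned below 0 but stayed above that median. The planned normexp correction moved the median of all genes to 0.46 and turned 7 of the 9 genes, leaving Tead2 and Amotl2 with their sign. Against the median of all genes, 1 of the 9 lay higher there. That number was 6 in the main values, with all unflagged spots and in the unscaled table. In the rows below the flagged area 4 genes had a value, and Tead2 (0.32) and Lats2 (0.30) turned above 0 there with fewer probes.

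**Figure D5:**
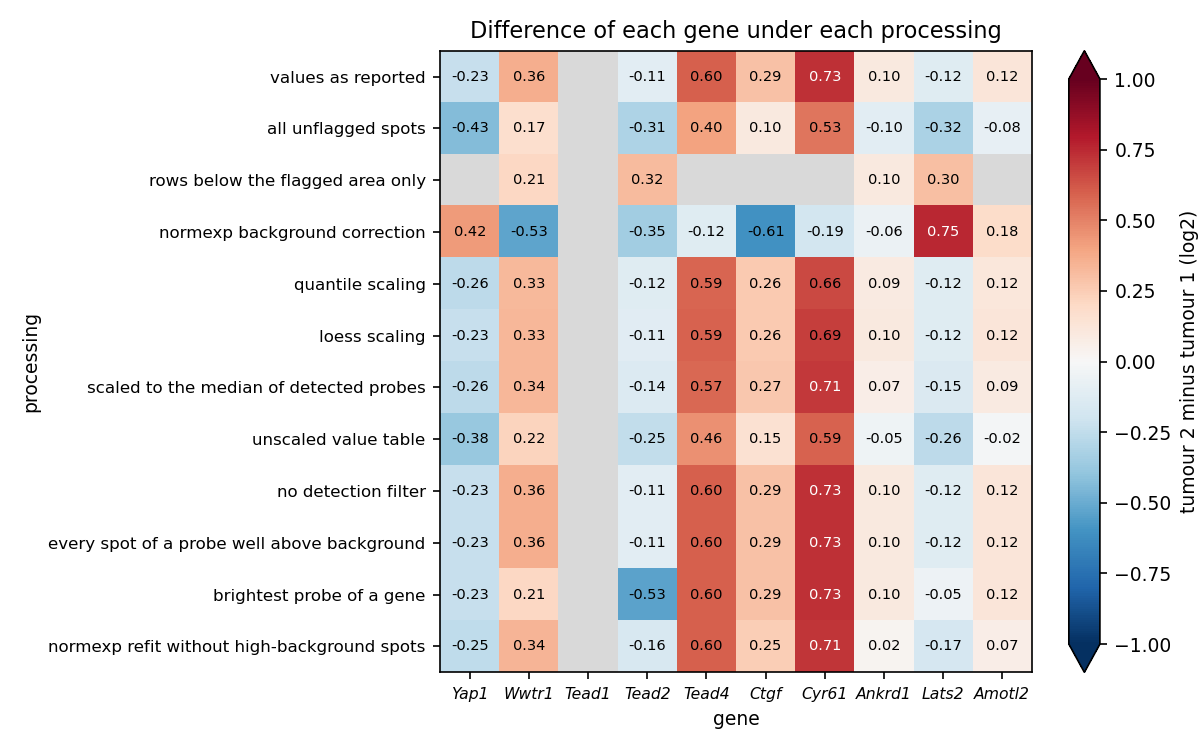
Difference of each of the 10 genes (log2, tumour 2 minus tumour 1) under each processing setting, by colour and number, with grey where a setting gave no value. Wwtr1, Tead4, Ctgf and Cyr61 are above 0 in every row with a value but that of the planned normexp correction. Rows that change only the detection rule or the probe chosen cannot move Tead4, Ctgf or Cyr61, which have 1 probe each. Tead1, below background in tumour 1, is left grey throughout.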

How the data were processed

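Total RNA (1.0 µg) was labelled with Cy3, per the labels' protocols. The deposited intensity values came from Agilent Feature Extraction (per the file headers 9.1.3.1, but 8 per the submitters' processing notes), with detrending within the array and no scaling between arrays recorded. The deposited value table equalled the processed signal intensity at all 45018 spots of both arrays, on a linear, uncentred scale, with medians of 67.5 (tumour 2) and 63.3 (tumour 1). The genome build of the probes is not given in the sources used here.

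Computed here were log2 processed signals minus the 75th percentile of the 31299 spots used (signal 902 in tumour 2 and 995 in tumour 1). Detection of a probe required that 50% or more of its spots used were well above background. A gene's difference is the median over its unsaturated probes detected on both arrays. Accessions of 22951 probes matched RefSeq genes and gave symbols. The software was Python 3.11.15, R 4.3.3 and limma 3.58.1. The calculation was run on simulated arrays, both made from the signals and detection calls of tumour 2 with noise and known changes added. That run did not model signal lost near flags or background differences between arrays, so it checks the calculation only. All members and each list's first 4 genes and 2-fold genes could be named, and other genes named were chosen after their values were seen. The members and lists were chosen with earlier results of these data known.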

Additional observations from a re-analysis of the deposited data

How the results depend on the processing

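The alternatives were those shown in the plot of settings, plus leaving out each tumour. The normexp fit without high-background spots was chosen after seeing the data. The members detected were 4 when only rows below the flagged area of the first array were used, where the Tead cofactors, the Ccn and ankyrin relatives and the Srf list had 0, 2 and 6 detected genes. Without the detection filter 1 member, Tead1, was at least 2-fold higher in tumour 2, with its signal in tumour 1 below background, and 2 Tead cofactors counted, with a median of -0.0147. Under the planned normexp correction the median was -0.12 over the members, 0.90 over Hippo regulators, 1.16 for Vgll4, -0.52 over the Yap signature, 1.81 over the Ccn and ankyrin relatives and 0.56 over the Srf list. In the lower rows the Hippo and the Ccn and ankyrin medians were -0.29 and -0.45, over fewer genes, and with all unflagged spots that of the Ccn and ankyrin relatives was -0.64. The cause of these moves was not tested. With 1 tumour left out, 9 to 10 members were detected in the other, and a difference cannot be formed. Genes lying 2-fold or more above tumour 1 in tumour 2 numbered 283, and those as far below it 198, against 666 and 414 with all unflagged spots, 4095 and 510 under the planned normexp correction, 127 and 113 in the lower rows, 618 and 522 without a detection filter, 126 and 66 in the refit, and 200 and 307 unscaled. The share of genes higher in tumour 2 was 53.1%, but 36.7% with all unflagged spots and 37.2% unscaled. No paired analysis was possible because there is 1 group. Signal over background limits Tead1 most, and the other probes lay at least 3.08 (log2) above the lowest level called.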
